A study of Homo sapiens with 9 samples.

Results

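The cornified envelope and suprabasal differentiation genes are the transcripts that squamous epithelial cells switch on as they leave the basal layer. Their response was measured by RNA-seq in CAL-27, an established human tongue squamous cell carcinoma line. The set held 46 genes chosen by symbol, beside 33216 genes in the tables, and was divided by role into envelope precursors, scaffold proteins, transglutaminases, suprabasal keratins, corneodesmosome proteins, kallikreins, protease inhibitors, lipid barrier genes, calcium-binding proteins and membrane proteins. There were 3 groups of 3 samples, compared 48 h after transfection, namely Control, siLEF1, in which small interfering RNA (siRNA) targeted LEF1, and siKDM4A, in which siRNA targeted KDM4A. LEF1 is the DNA-binding partner of beta-catenin in Wnt signalling and KDM4A is a histone lysine demethylase, and the study asked which genes respond to the loss of either. The labels do not say which siRNA, if any, the Control cells received.

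In stratified epithelium, keratinocytes of the upper layers build a protein shell under the plasma membrane. Scaffold proteins such as envoplakin, periplakin and involucrin are laid down first, transglutaminases then cross-link small proline-rich proteins and loricrin onto them, and ceramides are attached to the outside. Kallikrein proteases later cut the corneodesmosomes that hold the dead cells together, and inhibitors such as LEKTI, the product of SPINK5, restrain them. Oral mucosa and squamous carcinomas run parts of this programme without forming the full cornified layer of skin.

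Values were FPKM, read numbers scaled by transcript length and library size. The libraries held 15263085 to 17126523 reads on genes. In these libraries, 1 kilobase of transcript with 3 reads, the level taken as the counting floor, was worth 0.175 to 0.197 FPKM, so members far below 1 FPKM rest on a handful of reads, and these reads, recovered from the steps of the FPKM values, are given for them. Log2 fold changes are differences of log2(FPKM + 0.1), which understates the change of low genes. A gene was tested where its mean was at least 0.1 FPKM, and called raised or lowered at an adjusted p below 0.05 (limma, Benjamini-Hochberg over all genes tested) with a fold change above 1.5. The targets fell in their own groups: LEF1 averaged 1.15 ± 0.140 FPKM (SD, n = 3) with Control and 0.249 ± 0.0204 with siLEF1, and KDM4A averaged 16.5 ± 0.0944 with Control and 2.77 ± 0.0111 with siKDM4A. The study calls the samples of a group independent and says no more of the cultures, so p-values measure the spread between these samples. In bulk RNA, fewer cells of a type and less RNA per cell cannot be told apart.

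Of the 46 members, 41 had values. LOR (loricrin), CRNN, SPRR3, KRT1 and DSG1 had no row in any table; the tables list no gene that is at 0 in all 9 libraries. The programme was only partly expressed in this line. In Control, 14 members had a mean of at least 1 FPKM, 16 lay between 0.1 and 1 FPKM and 11 lay below 0.1 FPKM. In siLEF1 the corresponding numbers were 18, 15 and 8, and in siKDM4A they were 11, 12 and 18. The median of the group means over the 41 members was 0.355 FPKM in Control, 0.525 FPKM in siLEF1 and 0.162 FPKM in siKDM4A. ANXA1 was the most abundant member in each group, above 98.8% of the genes in Control. FLG, RPTN, SPRR2A, TGM3, KRT4, CDSN, DSC1 and MAL stayed under the test's filter in all comparisons, and none of them exceeded 0.302 FPKM in any library.

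**Figure D1:**
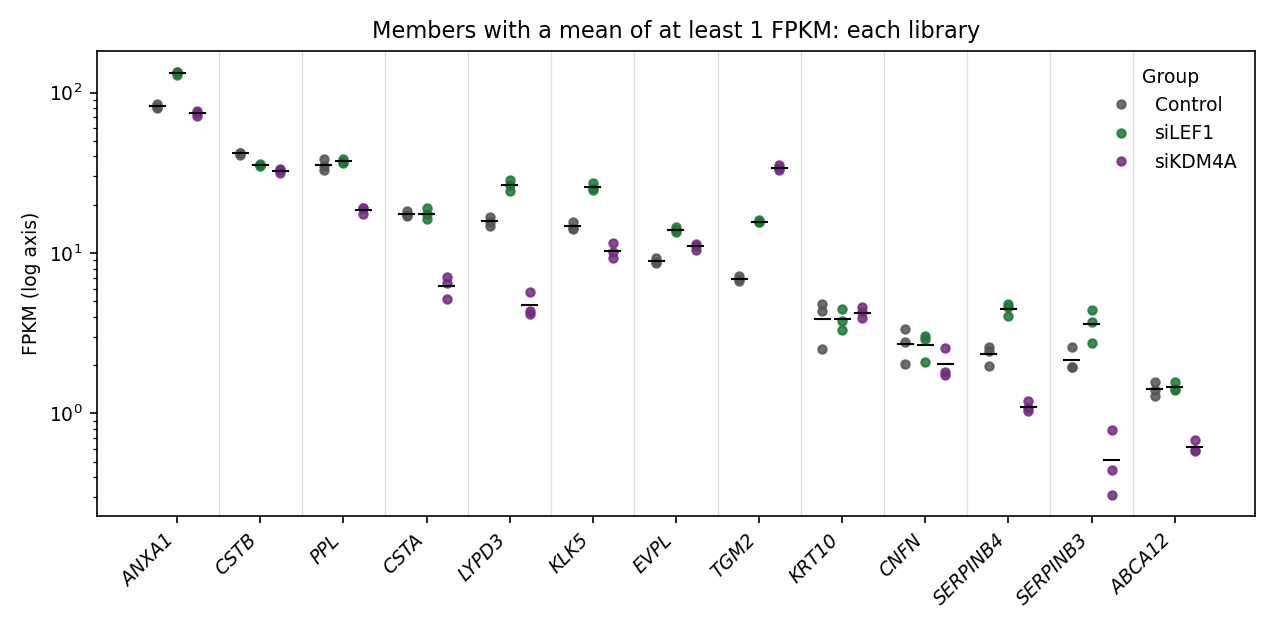
FPKM on a log axis of the 13 members with a mean of at least 1 FPKM over the 9 libraries, ordered by their Control mean; each point is 1 library and each black bar a group mean of 3 libraries. LYPD3, SERPINB4, SERPINB3, KLK5 and ANXA1 sat above Control in siLEF1 and below it in siKDM4A, whereas TGM2 climbed from Control through siLEF1 to siKDM4A. For KLK5 and ANXA1 the siKDM4A decrease was under the fold threshold.

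Knockdown of LEF1 raised envelope genes of several roles. The raised members were the precursors IVL, SPRR1A, SPRR1B and SPRR2D, the scaffold genes ANXA1 and EVPL, the transglutaminase TGM2, the protease KLK5, the inhibitors SERPINB3 and SERPINB4, and the membrane protein LYPD3. Thus 11 of the 33 members tested were raised and 1, CALML5, was lowered, where 6.31% of all 21831 genes tested were called raised and 5.31% lowered. The members were chosen with earlier results of these data known, so the shares here and in the comparisons below are not an independent test of the set. The median log2 fold change was 0.40 over the members tested and -0.01 over all genes tested. IVL and SPRR1A passed the filter only through their siLEF1 level; of the 30 members that also passed it in Control alone, 9 were raised. In 14 of the 41 members every siLEF1 library lay above every Control library, and in 3 every one lay below, against 22.2% and 24.2% of the genes tested. This count and the like counts below include members under the filter, whereas the percentages cover only genes that passed it.

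Knockdown of KDM4A lowered members of several roles. PPL, KLK10, KLK11, SPINK5, CSTA, SERPINB3, SERPINB4, ABCA12, CALML3, CALML5 and LYPD3 fell, and TGM2 alone rose. These were 11 lowered and 1 raised of 29 members tested, where 7.80% of the 21253 genes tested were called lowered and 4.23% raised. The median log2 fold change was -0.52 over the members tested and -0.05 over all genes tested. All 11 lowered members passed the filter in Control alone, which was fixed in advance because a lowered member is higher in Control. KLK11, SPINK5, CALML3 and CALML5 averaged below 0.1 FPKM in siKDM4A and passed only through their Control level. Their adjusted p-values in siKDM4A against Control are therefore not independent support. The siKDM4A libraries lay wholly below Control in 20 of the 41 members and wholly above it in 2, EVPL and TGM2, against 27.2% and 20.0% of the genes tested.

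Set directly against each other in 1 fit of all 9 libraries, siKDM4A was lower than siLEF1 for most of the set. Of 32 members tested, 20 were lowered and 1, TGM2, was raised, where 10.3% of the 21587 genes tested were lowered and 5.38% raised. Of the 29 members tested that also passed the filter in Control alone, 18 were lowered. Among these 18, SPRR1B and KRT13 still reached the filter of this fit only through their siLEF1 level. The median difference was -1.11 on the log2 scale over the members tested and -0.05 over all genes tested. In 28 of the 41 members every siKDM4A library lay below every siLEF1 library, and in 1 every one lay above, against 27.7% and 21.6% of the genes tested. Both comparisons with Control share the same 3 Control libraries. With their values side by side, TGM2 was raised in both, CALML5 was lowered in both, and SERPINB3, SERPINB4 and LYPD3 were raised in siLEF1 and lowered in siKDM4A. Another 5 raised in siLEF1 were tested and not called in siKDM4A, and 7 lowered in siKDM4A were tested and not called in siLEF1. Of the members tested against Control in both, 12 were called in neither.

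**Figure D2:**
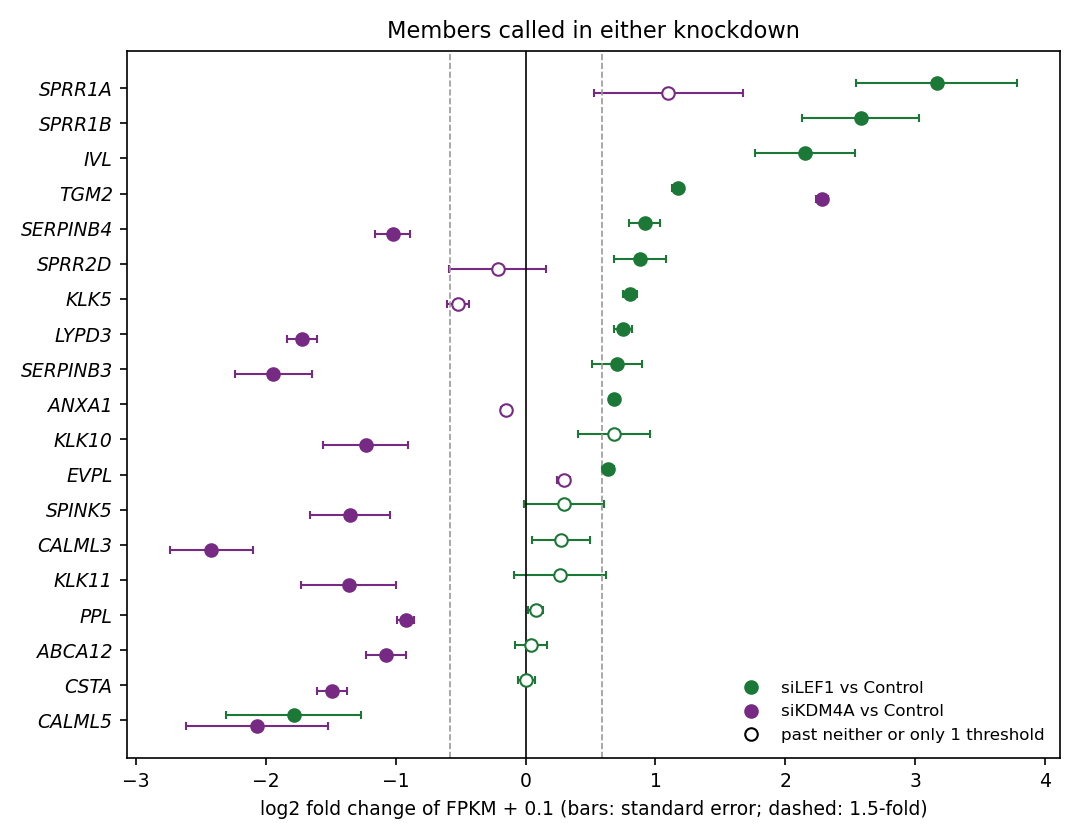
Log2 fold changes of FPKM + 0.1 against Control for the 19 members called in either knockdown; bars are standard errors from limma, filled points passed both thresholds, open points did not, and dashed lines mark a 1.5-fold change. IVL and SPRR1B have no siKDM4A point because they were under the filter in that comparison.

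Among the envelope precursors, involucrin transcripts were found almost only in siLEF1. IVL, which encodes involucrin, the early cross-linked precursor, had 1, 0 and 0 reads in the Control libraries, 10, 12 and 20 in siLEF1, and 0 in each siKDM4A library. All 3 siLEF1 libraries therefore lay above the other 6. IVL reached 0.396 ± 0.132 FPKM in siLEF1, with a log2 fold change of 2.15 (SE 0.39, adjusted p = 0.00564). It passed the filter only through its siLEF1 level, so its adjusted p-values in this paragraph are not independent support. The ratio of siLEF1 to Control reads, scaled to library reads, was 39.9, with an exact 95% counting interval of 6.78 to 1612, so its size is poorly fixed. In siKDM4A, IVL was at least 4.72-fold lower than in siLEF1, taking 3 reads per library as the floor (log2 difference -2.28, SE 0.37, adjusted p = 0.00108). Intervals and floors cover counting error only.

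The small proline-rich proteins, cross-bridging envelope proteins encoded beside IVL in the epidermal differentiation complex, moved similarly in siLEF1. SPRR1A had 0, 0 and 1 reads in Control, 6, 9 and 3 in siLEF1, and 1 in each siKDM4A library. SPRR1B had 1, 0 and 2 reads in Control, 10, 8 and 13 in siLEF1, and none in siKDM4A. For both genes the siLEF1 libraries were above all others. The log2 fold changes in siLEF1 were 3.17 (SE 0.62, adjusted p = 0.00823) for SPRR1A and 2.58 (SE 0.45, adjusted p = 0.00500) for SPRR1B. The read ratios were 17.1 (95% counting interval 2.70 to 712) and 9.81 (3.06 to 50.2). SPRR1A passed the filter in this comparison only through its siLEF1 level, so its adjusted p there is not independent support. Against siLEF1, siKDM4A was lower by -2.07 for SPRR1A (SE 0.55, adjusted p = 0.0153) and by -3.47 for SPRR1B (SE 0.43, adjusted p = 2.08e-04), which is at least 3.50-fold for SPRR1B at the floor of 3 reads per library. SPRR1B passed the filter between the knockdowns only through its siLEF1 level, so its adjusted p there is not independent support. The SPRR1A difference between the knockdowns was no longer called without siLEF1 replicate 1 (-1.99, adjusted p = 0.0503) or replicate 2 (-1.72, adjusted p = 0.0613), and SPRR1A was called raised in siKDM4A without Control replicate 3 (1.69, adjusted p = 0.0324), the only Control library with a read. These genes share 11.3% of the distinct 50-base stretches of SPRR1A, so they were also summed. The pair had 1, 0 and 3 reads in Control, 16, 17 and 16 in siLEF1, and 1, 1 and 1 in siKDM4A. Relative to library reads, the sum was 11.6-fold higher in siLEF1 (two-sided exact permutation p = 0.10, the smallest that 3 against 3 allows), and in siKDM4A it overlapped Control (p = 0.70).

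The regions before the start sites of IVL, SPRR1A and SPRR1B are shown because these 3 neighbours rose together in siLEF1. Each line gives 250 bases before and 50 bases from the RefSeq start site on build GRCh38.p14, on the plus strand, at chr1:152908296-152908595, chr1:152983831-152984130 and chr1:153030953-153031252. Capitals mark the AP-1 words TGACTCA or TGAGTCA and the TATA word TATAAA, searched on both strands; no printed matches overlap.
IVL: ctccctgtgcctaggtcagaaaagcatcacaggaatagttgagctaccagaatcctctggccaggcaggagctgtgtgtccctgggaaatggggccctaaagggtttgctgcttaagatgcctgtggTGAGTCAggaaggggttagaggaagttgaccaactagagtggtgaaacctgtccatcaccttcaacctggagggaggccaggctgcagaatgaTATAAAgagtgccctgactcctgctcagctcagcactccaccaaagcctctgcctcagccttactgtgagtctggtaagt
SPRR1A: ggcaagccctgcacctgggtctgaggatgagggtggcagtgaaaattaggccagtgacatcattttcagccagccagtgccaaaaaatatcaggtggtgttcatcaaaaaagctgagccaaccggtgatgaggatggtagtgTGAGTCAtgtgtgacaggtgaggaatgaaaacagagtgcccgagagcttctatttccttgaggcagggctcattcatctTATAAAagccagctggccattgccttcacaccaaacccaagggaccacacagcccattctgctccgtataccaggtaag
SPRR1B: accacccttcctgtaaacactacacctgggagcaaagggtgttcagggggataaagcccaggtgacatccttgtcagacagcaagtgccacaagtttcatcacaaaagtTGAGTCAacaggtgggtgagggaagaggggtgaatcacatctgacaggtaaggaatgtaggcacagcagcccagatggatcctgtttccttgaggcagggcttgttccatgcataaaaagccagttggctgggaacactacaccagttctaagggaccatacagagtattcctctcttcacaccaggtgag
The AP-1 word, bound by the FOS and JUN family, lay at -123 in IVL, -108 in SPRR1A and -141 in SPRR1B. Of the 33 members with a promoter entry in RefSeq, 6 held it (also SPRR2A, SPRR3 and SBSN), where 4.95% of 35116 promoters did, and the SPRR genes among them are paralogues. None of the 3 windows holds a TCF/LEF word, that is CTTTGAA or the same word ending in AT, TA or TT, which 3 of the 33 members and 13.8% of all promoters hold. A match is a string of letters and not a measured site.

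SPRR2D, a further proline-rich precursor, had 9, 14 and 11 reads in Control, 19, 25 and 26 in siLEF1, and 5, 14 and 14 in siKDM4A. The siLEF1 libraries were above all others, while siKDM4A overlapped Control. The siLEF1 log2 fold change was 0.88 (SE 0.20, adjusted p = 0.0150) and the siKDM4A against siLEF1 difference was -1.10 (SE 0.33, adjusted p = 0.0267). Both calls were lost without siLEF1 replicate 2 (0.82, adjusted p = 0.0561, and -1.03, adjusted p = 0.0792) and without siLEF1 replicate 3 (0.83, adjusted p = 0.0585, and -1.05, adjusted p = 0.0775). SPRR2A and SPRR2E, near-copies that share 32.7% and 23.4% of their 50-base stretches with other genes, had at most 4 reads in any library. Summed with SPRR2D, they had 12, 17 and 11 reads in Control, 21, 27 and 30 in siLEF1, and 6, 15 and 18 in siKDM4A (exact permutation p = 0.10 and p = 0.80 against Control).

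The other precursors were low or did not differ. CNFN, which encodes cornifelin, was 2.72 ± 0.671 FPKM in Control, 2.68 ± 0.519 in siLEF1 and 2.03 ± 0.440 in siKDM4A and was not called in any comparison. FLG, the precursor of the keratin-bundling protein filaggrin, had 11, 13 and 16 reads in Control, 6, 3 and 5 in siLEF1, and 12, 12 and 4 in siKDM4A. It was thus the precursor whose siLEF1 libraries all lay below Control, but at 0.0678 FPKM in Control it was not tested. SBSN (suprabasin) had 3, 5 and 2 reads in Control, 2, 7 and 4 in siLEF1, and 1, 0 and 0 in siKDM4A, and was tested but not called in siLEF1. RPTN (repetin) had 1 read in all 9 libraries together. Within the epidermal differentiation complex, between S100A10 and S100A1 on chr1:151982915-153632039 (hg38), the tables held 45 protein-coding genes. Besides the members there, 5 of 24 others tested were raised and 0 lowered in siLEF1, and 0 of 20 were raised and 9 lowered in siKDM4A, all 9 of them S100 genes. Over all genes tested, 6.31% were raised and 5.31% lowered in siLEF1, and 4.23% raised and 7.80% lowered in siKDM4A.

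**Figure D3:**
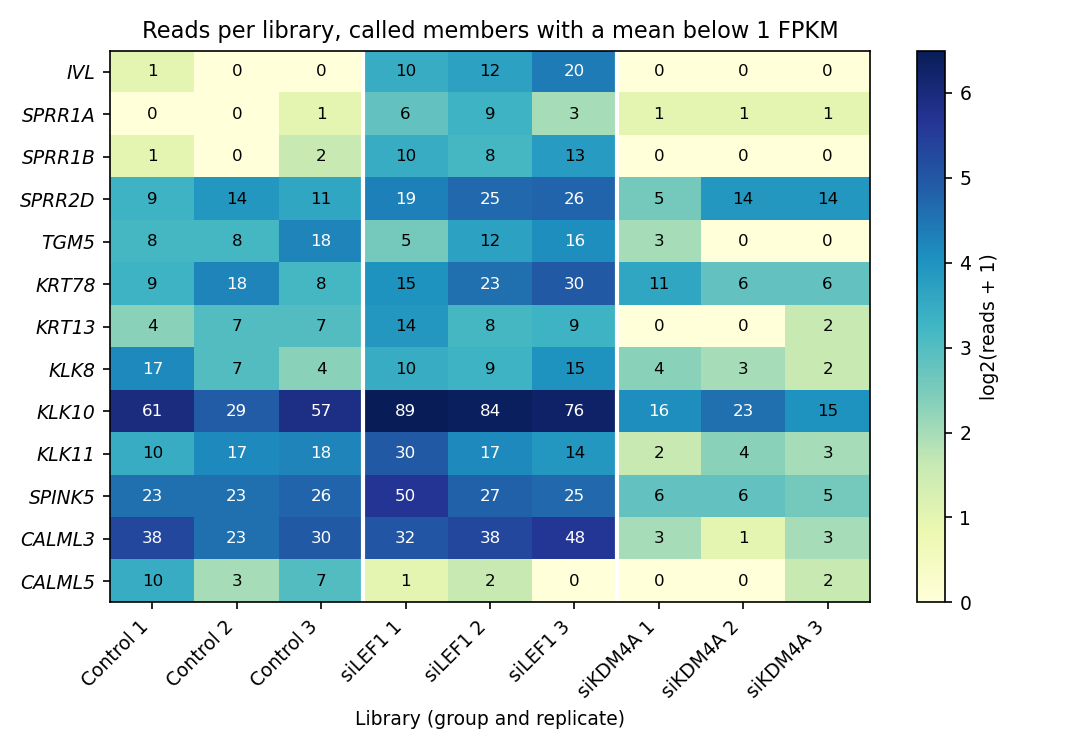
Reads per library of the 13 members with a mean below 1 FPKM that were called in at least 1 of the 3 comparisons; each row is a gene, each column a library, and the colour is log2(reads + 1). IVL, SPRR1A and SPRR1B have reads chiefly in the siLEF1 libraries, with 0 to 2 in each of the other 6, and KLK10, KLK11, SPINK5 and CALML3 are lowest in the siKDM4A libraries.

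The 3 scaffold genes were abundant and each followed its own course. ANXA1 encodes annexin A1, a calcium-dependent phospholipid-binding protein cross-linked into the envelope. It measured 81.1, 85.6 and 80.7 FPKM in Control, 129, 135 and 134 in siLEF1, and 71.3, 76.7 and 75.1 in siKDM4A. The 3 groups did not overlap. Its log2 fold change was 0.68 in siLEF1 (SE 0.03, adjusted p = 1.68e-05), and in siKDM4A it was -0.15 (SE 0.04, adjusted p = 0.0222), past the p threshold but far under 1.5-fold. Between the knockdowns the difference was -0.83 (SE 0.04, adjusted p = 2.88e-07).

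The ANXA1 window is shown because it holds 2 TCF/LEF words, the most of any member window. A TCF/LEF word was held by 3 of the 33 members with a promoter entry and by 13.8% of all promoters. Any part of these words in the siLEF1 rise of ANXA1 was not tested. The window lies on the plus strand at chr9:73151615-73151914 (RefSeq, GRCh38.p14), with the TCF/LEF words at -178 and -124 and the TATA word at -31 in capitals.
ANXA1: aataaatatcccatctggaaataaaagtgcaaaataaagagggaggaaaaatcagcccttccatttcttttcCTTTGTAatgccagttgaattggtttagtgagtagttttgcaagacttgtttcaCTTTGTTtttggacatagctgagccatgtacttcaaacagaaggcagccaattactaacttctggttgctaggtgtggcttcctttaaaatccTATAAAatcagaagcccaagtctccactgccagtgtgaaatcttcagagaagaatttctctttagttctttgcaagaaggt
The other members with a TCF/LEF word were CALML5, at -44, which fell in siLEF1, and TGM5, at -197, which was not called there.

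PPL encodes periplakin, which with envoplakin links the envelope to desmosomes and keratin filaments. It measured 38.4, 32.8 and 34.9 FPKM in Control, 36.4, 36.9 and 38.4 in siLEF1, and 19.1, 17.5 and 19.1 in siKDM4A. The siKDM4A libraries lay below the other 6, and Control and siLEF1 overlapped. In siKDM4A the log2 fold change was -0.92 (SE 0.07, adjusted p = 1.06e-04), and against siLEF1 it was -1.001 (SE 0.06, adjusted p = 2.25e-06). EVPL, which encodes the partner envoplakin, measured 8.79, 8.70 and 9.36 FPKM in Control, 13.4, 13.9 and 14.5 in siLEF1, and 11.0, 11.5 and 10.5 in siKDM4A. It was higher in every knockdown library than in any Control library. Its log2 fold change was 0.64 in siLEF1 (SE 0.05, adjusted p = 1.17e-04) and 0.29 in siKDM4A (SE 0.05, adjusted p = 0.00464), the latter under the fold threshold. The difference between the knockdowns, -0.34 (SE 0.05, adjusted p = 4.51e-04), was also under it. In every siKDM4A library PPL was thus below, and its partner EVPL above, all Control libraries.

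TGM2 was the member that rose in both knockdowns. It encodes tissue transglutaminase, the widely expressed enzyme of the family, whereas TGM1, TGM3 and TGM5 are the enzymes known for cross-linking the envelope. TGM2 measured 6.88, 7.22 and 6.66 FPKM in Control, 15.5, 15.7 and 16.0 in siLEF1, and 33.9, 35.6 and 32.7 in siKDM4A. The 3 groups formed separate steps with little spread inside each. The log2 fold change was 1.17 in siLEF1 (SE 0.04, adjusted p = 7.74e-06) and 2.28 in siKDM4A (SE 0.05, adjusted p = 1.27e-06), and siKDM4A exceeded siLEF1 by 1.11 (SE 0.04, adjusted p = 1.51e-07). TGM1 was 0.600 ± 0.126, 0.668 ± 0.162 and 0.737 ± 0.131 FPKM in Control, siLEF1 and siKDM4A, with overlapping libraries and no call. TGM5 had 8, 8 and 18 reads in Control, 5, 12 and 16 in siLEF1, and 3, 0 and 0 in siKDM4A. It was called between the knockdowns (-1.26, SE 0.42, adjusted p = 0.0434) and not against Control (adjusted p = 0.0687), although the siKDM4A libraries lay below all others. The TGM5 call was lost without any 1 of 6 libraries, namely Control replicates 1 and 2, siLEF1 replicates 2 and 3, and siKDM4A replicates 2 and 3, with differences of -1.26 to -1.07 and adjusted p of 0.0555 to 0.138. TGM3 had at most 2 reads in a library.

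None of the suprabasal keratins that could be tested against Control was called there. KRT10, the type I keratin of the first suprabasal layers of skin, was 3.89 ± 1.22 FPKM in Control, 3.85 ± 0.596 in siLEF1 and 4.26 ± 0.331 in siKDM4A; its usual partner KRT1 had no row. KRT13, the keratin of suprabasal oral mucosa, had 4, 7 and 7 reads in Control, 14, 8 and 9 in siLEF1, and 0, 0 and 2 in siKDM4A. It was called between the knockdowns, at -1.49 (SE 0.36, adjusted p = 0.0103). KRT13 passed the filter between the knockdowns only through its siLEF1 level, so that adjusted p is not independent support. In siKDM4A against Control it was under the filter and not tested, although every siKDM4A library lay below every Control library. With no filter it was called lowered there, at -1.05 (SE 0.27, adjusted p = 0.0374). KRT4, the mucosal partner of KRT13, had 1, 0 and 2 reads in the siLEF1 libraries and none elsewhere. KRT78 had 9, 18 and 8 reads in Control, 15, 23 and 30 in siLEF1, and 11, 6 and 6 in siKDM4A, with a called difference between the knockdowns of -1.11 (SE 0.34, adjusted p = 0.0314). That call was lost without siLEF1 replicate 2 or 3 or siKDM4A replicate 2 or 3, with differences of -1.07 to -0.95 and adjusted p of 0.0861 to 0.109. The corneodesmosome members, which encode the adhesion proteins of the cornified layer, were too low to test: CDSN had at most 7 reads and DSC1 at most 7 in a library. The DSC1 reads were 0, 1 and 0 in Control, 3, 2 and 7 in siLEF1, and 0, 1 and 0 in siKDM4A, and the siLEF1 libraries were above all others.

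**Figure D4:**
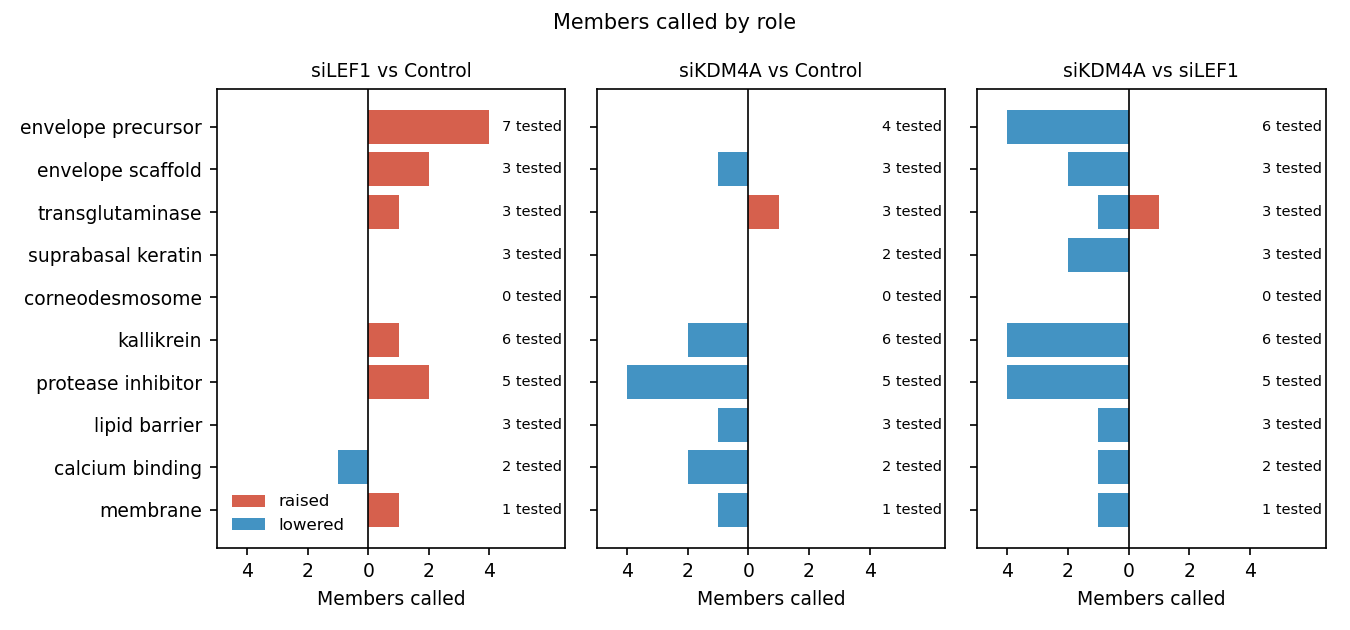
Number of members called raised (right) or lowered (left) by role in the 3 comparisons, with the number tested at the right of each panel. The 4 raised precursors in siLEF1 and the 4 lowered protease inhibitors in siKDM4A were the longest bars against Control; no corneodesmosome member could be tested.

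Kallikreins are secreted serine proteases, encoded in a cluster on chromosome 19, that degrade corneodesmosomes, with KLK5 able to activate KLK7. Only KLK5 was above 2 FPKM. KLK5 measured 14.4, 15.7 and 14.1 FPKM in Control, 27.2, 24.7 and 25.6 in siLEF1, and 11.5, 10.1 and 9.25 in siKDM4A. The siLEF1 libraries were above and the siKDM4A libraries below all Control libraries. The log2 fold change was 0.81 in siLEF1 (SE 0.05, adjusted p = 8.04e-05) and -1.32 between the knockdowns (SE 0.08, adjusted p = 2.14e-06). In siKDM4A against Control it was -0.52 (SE 0.08, adjusted p = 0.00368), under the fold threshold, and -0.60 and past it without siKDM4A replicate 1.

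KLK10 and KLK11 fell in siKDM4A at low levels. KLK10 had 61, 29 and 57 reads in Control, 89, 84 and 76 in siLEF1, and 16, 23 and 15 in siKDM4A. KLK11 had 10, 17 and 18 reads in Control, 30, 17 and 14 in siLEF1, and 2, 4 and 3 in siKDM4A. For both, every siKDM4A library was below every other. The log2 fold changes in siKDM4A were -1.23 for KLK10 (SE 0.33, adjusted p = 0.0264) and -1.36 for KLK11 (SE 0.37, adjusted p = 0.0283). KLK11 passed the filter in that comparison only through its Control level, so its adjusted p there is not independent support. KLK10 lost its call without Control replicate 1 or 3 or siKDM4A replicate 1 or 3 (-1.18 to -1.07, adjusted p of 0.0726 to 0.0935), and KLK11 without Control replicate 2 or 3 or any 1 siKDM4A replicate (-1.46 to -1.24, adjusted p of 0.0535 to 0.0907). Between the knockdowns the differences were -1.91 for KLK10 (SE 0.28, adjusted p = 5.20e-04) and -1.63 for KLK11 (SE 0.35, adjusted p = 0.00504), and neither call depended on 1 library. KLK8 had 17, 7 and 4 reads in Control, 10, 9 and 15 in siLEF1, and 4, 3 and 2 in siKDM4A. Its difference between the knockdowns was -1.25 (SE 0.41, adjusted p = 0.0384), and the call was lost without Control replicate 2 or any 1 of the siLEF1 or siKDM4A replicates (-1.37 to -1.10, adjusted p of 0.0529 to 0.120). KLK8 also shares 34.1% of its 50-base stretches with an overlapping annotated gene, AC011473.4. KLK6 was 0.306 ± 0.0178, 0.525 ± 0.296 and 0.282 ± 0.141 FPKM, and KLK7 0.256 ± 0.109, 0.362 ± 0.104 and 0.148 ± 0.00387 FPKM, in Control, siLEF1 and siKDM4A, with no call for either.

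Of 5 protease inhibitors tested, 2 were raised in siLEF1 and 4 lowered in siKDM4A, SERPINB3 and SERPINB4 in both counts, where 6.31% and 7.80% of all genes tested were raised and lowered. SPINK5, whose product LEKTI inhibits KLK5 and KLK7, had 23, 23 and 26 reads in Control, 50, 27 and 25 in siLEF1, and 6, 6 and 5 in siKDM4A. Every siKDM4A library had fewer reads than any other library. In siKDM4A the log2 fold change was -1.35 (SE 0.31, adjusted p = 0.0142), and the difference between the knockdowns was -1.65 (SE 0.30, adjusted p = 0.00207). Against Control, SPINK5 passed the filter in siKDM4A only through its Control level, so its adjusted p there is not independent support. CSTA, which encodes cystatin A, a cysteine protease inhibitor and envelope component, measured 18.3, 17.2 and 17.0 FPKM in Control, 19.1, 16.2 and 17.5 in siLEF1, and 7.06, 5.13 and 6.46 in siKDM4A. Control and siLEF1 overlapped, and siKDM4A lay below both. Its log2 fold change in siKDM4A was -1.49 (SE 0.11, adjusted p = 1.31e-04), and against siLEF1 it was -1.50 (SE 0.11, adjusted p = 7.05e-06). CSTB, the related cystatin B, was 41.8 ± 0.580 FPKM in Control, 35.4 ± 0.532 in siLEF1 and 32.6 ± 0.827 in siKDM4A. Its log2 fold changes of -0.24 in siLEF1 (SE 0.02, adjusted p = 4.70e-04) and -0.35 in siKDM4A (SE 0.03, adjusted p = 1.87e-04) passed the p threshold and not the fold threshold, as did the difference between the knockdowns of -0.12 (SE 0.03, adjusted p = 0.00747).

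SERPINB3 and SERPINB4, the squamous cell carcinoma antigens, are neighbouring serpins on chromosome 18 that moved in opposite directions in the knockdowns. SERPINB3 measured 1.95, 1.96 and 2.58 FPKM in Control, 3.69, 2.76 and 4.43 in siLEF1, and 0.446, 0.310 and 0.789 in siKDM4A. SERPINB4 measured 2.58, 2.46 and 1.99 FPKM in Control, 4.82, 4.62 and 4.05 in siLEF1, and 1.03, 1.19 and 1.07 in siKDM4A. The 3 groups of both genes did not overlap, with siLEF1 highest and siKDM4A lowest. For SERPINB3 the log2 fold change was 0.70 in siLEF1 (SE 0.19, adjusted p = 0.0304) and -1.94 in siKDM4A (SE 0.30, adjusted p = 0.00274). For SERPINB4 it was 0.92 in siLEF1 (SE 0.12, adjusted p = 0.00136) and -1.02 in siKDM4A (SE 0.13, adjusted p = 0.00139). The SERPINB3 call in siLEF1 was lost without Control replicate 1 or 2 or siLEF1 replicate 1 or 3 (0.55 to 0.68, adjusted p of 0.0884 to 0.0949). Differences between the knockdowns were -2.65 for SERPINB3 (SE 0.28, adjusted p = 8.37e-05) and -1.94 for SERPINB4 (SE 0.12, adjusted p = 2.58e-06). The genes share 23.3% of the 50-base stretches of SERPINB3 and 20.1% of those of SERPINB4, so that the division of reads between them is uncertain. Their sum had 135, 131 and 131 reads in Control, 258, 226 and 273 in siLEF1, and 47, 48 and 61 in siKDM4A, a 1.81-fold rise and a fall to 0.365 of Control relative to library reads (exact permutation p = 0.10 in each, the smallest possible). The summed levels were closer together within Control than those of either gene.

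The windows before the start sites of this pair are shown because they too are near-copies. They lie on the minus strand at chr18:63661844-63662143 and chr18:63644207-63644506 (RefSeq, GRCh38.p14), 296 of their aligned bases are identical and 4 differ (98.7% identity), and neither holds a TCF/LEF, AP-1 or TATA word, so no letters are in capitals.
SERPINB3: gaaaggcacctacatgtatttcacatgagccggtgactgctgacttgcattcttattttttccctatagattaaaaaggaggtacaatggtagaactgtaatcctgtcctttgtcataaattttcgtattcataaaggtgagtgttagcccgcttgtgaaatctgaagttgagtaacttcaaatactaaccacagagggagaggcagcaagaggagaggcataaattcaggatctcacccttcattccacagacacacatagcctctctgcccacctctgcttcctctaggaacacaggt
SERPINB4: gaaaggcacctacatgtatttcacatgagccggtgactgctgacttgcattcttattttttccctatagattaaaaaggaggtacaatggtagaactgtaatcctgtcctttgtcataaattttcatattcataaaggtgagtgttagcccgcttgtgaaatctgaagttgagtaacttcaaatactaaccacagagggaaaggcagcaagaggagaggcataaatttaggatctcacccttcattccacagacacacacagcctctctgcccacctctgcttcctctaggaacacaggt

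Against Control, 1 lipid barrier member was called, in siKDM4A. ABCA12 encodes the transporter that loads glucosylceramides into lamellar granules. It measured 1.57, 1.40 and 1.28 FPKM in Control, 1.41, 1.39 and 1.56 in siLEF1, and 0.686, 0.579 and 0.589 in siKDM4A. Control and siLEF1 overlapped and siKDM4A lay below both. In siKDM4A the log2 fold change was -1.08 (SE 0.15, adjusted p = 0.00199), and the difference from siLEF1 was -1.12 (SE 0.13, adjusted p = 1.48e-04). CERS3, the ceramide synthase for very long acyl chains, was 1.03 ± 0.101, 1.16 ± 0.107 and 0.800 ± 0.0986 FPKM, and ALOX12B, a lipoxygenase that acts on envelope ceramides, was 0.373 ± 0.164, 0.441 ± 0.150 and 0.181 ± 0.0598 FPKM, in Control, siLEF1 and siKDM4A. Neither was called in any comparison, although in both genes all siKDM4A libraries lay below all others. Between the knockdowns CERS3 differed by -0.49 (SE 0.15, adjusted p = 0.0272), under the fold threshold.

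Both calmodulin-like genes, calcium-binding proteins of differentiating layers, fell in siKDM4A. CALML3 had 38, 23 and 30 reads in Control, 32, 38 and 48 in siLEF1, and 3, 1 and 3 in siKDM4A. Control and siLEF1 overlapped. The log2 fold change in siKDM4A was -2.42 (SE 0.32, adjusted p = 0.00148), and between the knockdowns -2.69 (SE 0.26, adjusted p = 4.39e-05). CALML5, the skin-specific relative, had 10, 3 and 7 reads in Control, 1, 2 and 0 in siLEF1, and 0, 0 and 2 in siKDM4A. It was the member lowered in both knockdowns, with log2 fold changes of -1.78 in siLEF1 (SE 0.52, adjusted p = 0.0393) and -2.07 in siKDM4A (SE 0.55, adjusted p = 0.0261). The ratios to Control were 0.142 (95% counting interval 0.0271 to 0.480) and 0.0930 (0.0105 to 0.383). The siLEF1 call was lost without Control replicate 1 or 3 or siLEF1 replicate 1 or 3 (-1.83 to -1.44, adjusted p of 0.0850 to 0.129), and the siKDM4A call without Control replicate 1 or 3 or siKDM4A replicate 1 or 2 (-1.98 to -1.77, adjusted p of 0.0745 to 0.0969). Against Control, CALML5 passed the filter in both knockdowns, and CALML3 in siKDM4A, only through the Control level. The adjusted p-values of those comparisons are therefore not independent support.

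LYPD3, a GPI-anchored surface protein of suprabasal keratinocytes, was, with SERPINB3 and SERPINB4, raised in siLEF1 and lowered in siKDM4A, and had the most reads of the 3. It measured 16.8, 14.8 and 15.7 FPKM in Control, 26.7, 24.5 and 28.5 in siLEF1, and 5.68, 4.38 and 4.17 in siKDM4A. The 3 groups were wide apart and did not overlap. The log2 fold change was 0.75 in siLEF1 (SE 0.07, adjusted p = 2.68e-04) and -1.72 in siKDM4A (SE 0.12, adjusted p = 8.94e-05), and the difference between the knockdowns was -2.47 (SE 0.11, adjusted p = 4.14e-07). MAL, a raft-associated membrane protein of differentiated mucosa, had 0, 0 and 3 reads in Control, 1, 7 and 2 in siLEF1, and none in siKDM4A, and was not tested.

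Other genes of the same programme were listed beside the members. Of 34 other envelope genes, including the late cornified envelope family, 11 were tested in siLEF1 with 1 raised and 0 lowered, and 9 in siKDM4A with 1 raised and 1 lowered. In siKDM4A, CST6 (cystatin E/M, an inhibitor of envelope proteases) rose by 0.82 and ECM1 (extracellular matrix protein 1) fell by 1.67 on the log2 scale. Of 12 other barrier lipid genes tested, 3 were raised and 1 lowered in siLEF1, and 2 were raised and 2 lowered in siKDM4A. UGCG, which makes glucosylceramide, rose by 1.24 in siKDM4A. Of 13 other desquamation and processing genes tested, 7 were raised and 1 lowered in siLEF1, with SERPINB7 at 1.60, and 0 were raised and 4 lowered in siKDM4A. Of 17 differentiation regulators tested, 0 were raised and 2 lowered in siLEF1, with OVOL1 at -0.96, and 0 were raised and 7 lowered in siKDM4A, where TP63, the master factor of stratified epithelium, was at -1.40 and KLF4, a barrier factor, at -1.34. The list medians were 0.29, 0.32, 0.61 and -0.25 in siLEF1 and -0.13, -0.14, -0.39 and -0.71 in siKDM4A, in the order given, beside the medians of -0.01 and -0.05 over all genes. Over all genes tested, 6.31% were raised and 5.31% lowered in siLEF1, and 4.23% raised and 7.80% lowered in siKDM4A. With so few genes tested per list, small counts cannot be told apart from these shares.

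The squamous identity of the line was checked on 15 epithelial markers, all of them expressed and tested. Their summed level ranged from 1643 to 1704 FPKM across Control, from 1781 to 1803 across siLEF1 and from 676 to 690.2 across siKDM4A, so it moved with the lowered members in siKDM4A, and its part in those results was not tested. Of the 15 markers, 2 were raised and 1 lowered in siLEF1, and 1 was raised and 13 lowered in siKDM4A. The 13 lowered included the basal keratin KRT5, from 232 ± 12.2 FPKM in Control to 25.3 ± 1.57 in siKDM4A. The 1 raised was EPCAM, from 73.5 ± 1.42 to 111 ± 2.92 FPKM. CDH1, the epithelial cadherin, was 59.4 ± 1.25 FPKM in Control and 65.1 ± 1.18 in siKDM4A and was not called. The 8 fibroblast markers summed to between 3.55 and 4.04 FPKM with Control, 5.31 and 6.31 with siLEF1, and 3.29 and 3.80 with siKDM4A. Of 4 tested, 0 were called in siKDM4A and 2 were raised in siLEF1. These were COL1A2, from 0.170 FPKM in Control to 0.744 in siLEF1, and PDGFRB, from 0.772 to 1.75. COL1A1, not called, averaged 2.39, 2.62 and 2.26 FPKM in Control, siLEF1 and siKDM4A, while DCN and PDGFRA were at or near 0 throughout. The 5 endothelial markers summed to 0.694 to 1.28, 2.02 to 2.42 and 2.46 to 2.87 FPKM, with 1 of 2 tested raised in siLEF1 and 1 of 1 in siKDM4A (CDH5 in both), while PECAM1 did not exceed a group mean of 0.0542 FPKM. The 6 leukocyte markers summed to 0.670 to 0.963, 0.617 to 1.04 and 0.391 to 0.408 FPKM, and PTPRC was at or near 0. Of 2 tested, 0 were called in siLEF1 and 1 was lowered in siKDM4A, namely ITGAM, from 0.613 FPKM in Control to 0.287. The shares over all genes tested were 6.31% raised and 5.31% lowered in siLEF1, and 4.23% raised and 7.80% lowered in siKDM4A. What part the fibroblast and endothelial markers that rose in siLEF1 had in the raised members was not tested.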

How the data were processed

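RNA was sequenced from 9 CAL-27 samples, 3 per group, after a stranded poly(A) library preparation. The authors deposited 1 table per library with FPKM values, normalised by them to exon length and library reads. The submitters' processing notes name Trimmomatic, HISAT2, Cufflinks, HTSeq and build hg38; the annotation is not given in the sources used here. For 95.5% of the genes with a GENCODE exon length, all FPKM values were whole multiples of the value of 1 read at that length. The margin was 0.02 reads, and wider for high counts and long genes. For the remaining genes a length that made the values whole was searched for, so their wholeness was fixed in advance. Library totals of 15263085 to 17126523 reads followed from the steps of the FPKM values. Groups were taken from the sample titles. Values were tested as log2(FPKM + 0.1), leaving out genes whose mean over the fitted libraries was under 0.1 FPKM, with limma 3.58.1 (R 4.3.3; lmFit and eBayes with a trend, two-sided, Benjamini-Hochberg), using the 6 libraries of each comparison with Control and all 9 for siKDM4A against siLEF1. The scripts were tested on simulated data, in which the share of false calls was above the adjusted p threshold in each comparison, so calls near the threshold are less certain than their adjusted p. Summed pairs were compared by exact permutation (scipy 1.17.1). Alternatives were the pseudocount, the filter, the trend, the libraries fitted, scaling, a replicate block, the fold threshold, limma's voom on recovered reads and leaving out each library. All members are named; those called and averaging 1 FPKM or more over the 9 libraries have every library's value, lower ones their reads where called, and fold changes are given where the adjusted p was below 0.05. From each list, named genes were taken among up to 4 called genes of largest change that averaged 1 FPKM or more. The members and lists were chosen with earlier results of these data known.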

Additional observations from a re-analysis of the deposited data

How the results depend on the processing

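The counts of members called in siLEF1 kept 8 to 12 raised under every alternative but a fold threshold of 2, which left 4. The 1 member lowered in siLEF1, CALML5, was 0 with a pseudocount of 1 or 0.01 FPKM, no filter, a filter of 1 FPKM, no trend or the replicate block, and 0 to 1 when single libraries were left out; the cause was not tested, except that the filter of 1 FPKM removes this gene. In siKDM4A, 6 members were lowered with a pseudocount of 1 FPKM and 6 with a filter of 1 FPKM, and between the knockdowns 12 and 8, in place of 11 and 20. The filter tests fewer genes, and the larger pseudocount shrinks the changes of members below 1 FPKM. Leaving out single libraries gave 9 to 11 raised in siLEF1, 1 to 2 raised (SPRR1A the second) and 8 to 10 lowered in siKDM4A, and 15 to 21 lowered between the knockdowns. With voom on recovered reads, 12 were raised in siLEF1, 12 lowered in siKDM4A and 22 lowered between the knockdowns, adding KLK10, TGM5, and KLK7 and ALOX12B. No member with an adjusted p below 0.05 changed direction under any alternative run. Replicate numbers did not pair the samples: deviations of same-numbered samples correlated at -0.0401 to 0.0427 over 12586 genes. With the replicate block, 11 members were raised and 0 lowered in siLEF1, 1 raised and 8 lowered in siKDM4A, and 18 lowered between the knockdowns; SPINK5, KLK10 and KLK11 lost their siKDM4A calls. Depth limits the members below 1 FPKM, many of which rest on fewer than 20 reads per library.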
